A study of Mus musculus with 18 samples.

Results

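The 10 genes described here are the 5 subunits of the transcription factor NF-kB and 5 of its inhibitors. The subunits are Nfkb1, Nfkb2, Rel, Rela and Relb. The inhibitors are Nfkbia, Nfkbib, Nfkbie, Nfkbiz and Tnfaip3. They were chosen by name as members of the pathway, with earlier results of these data known, and they are 10 of the 54532 genes in the deposited count table. All 10 passed the filter on low counts, which 13267 genes passed in all.

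NF-kB dimers are held in the cytoplasm by inhibitors of kB (IkB proteins). Signals from receptors such as the Toll-like and TNF receptors activate IkB kinases, which mark the IkB proteins for degradation, and the freed dimers enter the nucleus. Several of the genes that NF-kB then transcribes encode its own inhibitors and subunits, so the mRNA of these genes is commonly read as a sign of pathway activity in microglia, the resident macrophages of the brain.

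The study measured RNA in primary mouse microglia by bulk RNA-seq, in 18 libraries that fall into 6 groups of 3. The cells came from pups of postnatal day 0 to 3 and spent 10 days in mixed culture before the microglia were isolated. The labels give 2 genotypes, mTrem2 +/+ and hTrem2 R47H/+, called WT and R47H as in the sample titles. R47H is a coding variant of the microglial receptor TREM2 associated with Alzheimer's disease. Every group had a pre-treatment of 6 h, with 0.01% DMSO or with 1 uM MK2206, an inhibitor of the kinase Akt. Tau groups then received 1 ug/ml fibrils of the 0N4R isoform of tau, for a time that the labels do not give. The groups were WT, WT with tau, R47H, R47H with tau, R47H with MK2206, and R47H with MK2206 and tau. None of these 6 groups is labelled hTrem2 without R47H, and none holds WT cells with MK2206. Whether the 3 libraries of a group are separate cultures is not stated in the labels, and p-values here reflect the spread among libraries, which may be technical.

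Library totals ran from 16288531 to 20686299 counts. Trem2 itself read 935.0 to 1894 CPM (the library's counts scaled to a common total) in WT and 451.2 to 489.1 CPM in R47H, and 375.3 to 480.7 CPM in WT with tau against 128.2 to 243.0 CPM in R47H with tau. The value of 1894 CPM is that of WT replicate 3, and WT replicates 1 and 2 read 945.4 and 935.0 CPM. Whether reads of the hTrem2 allele are counted in this mouse gene was not tested. All 10 microglial markers had counts in each group, with a summed level of 4849 to 8795 CPM over the libraries, although the group means of Tmem119 were 0.642 to 1.57 CPM. Summed astrocyte markers lay between 53.9 and 106 CPM, oligodendrocyte markers between 66.6 and 172, neuronal markers between 1.14 and 3.50, fibroblast and vascular markers between 4.25 and 103, markers of monocytes, granulocytes and border macrophages between 394 and 561, and lymphocyte markers between 0 and 0.567 CPM. Cd3e, Nkg7, Cldn5 and S100a9 were at 0. In 2 libraries, WT replicate 3 and R47H with tau replicate 2, long genes read low against the other libraries of their group. The slope of a library's deviation from its group median, on the log2 CPM scale per 10-fold gene length, was -1.27 and -0.604 there and lay between -0.104 and 0.189 in the other 16. Results are given with these 2 libraries, and without them where a call differs.

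Promoter sequences, from RefSeq on GRCm38.p6, were at hand for 7 of the 10 genes: Nfkb2, Rel, Rela, Nfkbia, Nfkbib, Nfkbie and Tnfaip3. The 250 bases before each RefSeq start were searched on both strands for the kB consensus, the site of 10 bases that NF-kB dimers bind. Start here means the RefSeq start, which can differ from that of the deposited table. The Tnfaip3 window with matches, chr10:19015411-19015660, lies almost wholly within that gene as listed below. It holds 110 exon bases of GENCODE M21, and all 250 bases of the first Nfkb2 window are exon there. Matches that overlapped were merged. The consensus was present in 5 of the 7 genes and in 7 of their 10 windows, since some genes have more than 1 start. Of all 32851 windows of this length, 7.25% held it. The windows of Rela and Nfkbib held no match. A match is a run of letters and not a measured binding site.

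The windows of Nfkbia and Nfkbie are shown whole, because these genes had the largest rises with tau in R47H cells. Each is printed 5′ to 3′ on the gene's strand with the kB match in capitals. The Nfkbia window is chr12:55492648-55492897 on the minus strand, and its match ends 19 bases before the gene start. The Nfkbie window is chr17:45555450-45555699 on the plus strand, and its match ends 96 bases before the start.
Nfkbia: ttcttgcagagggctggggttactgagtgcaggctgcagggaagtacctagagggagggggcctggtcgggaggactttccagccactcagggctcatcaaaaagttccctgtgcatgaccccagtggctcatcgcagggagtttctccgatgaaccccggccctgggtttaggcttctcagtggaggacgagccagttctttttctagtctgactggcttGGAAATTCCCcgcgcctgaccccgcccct
Nfkbie: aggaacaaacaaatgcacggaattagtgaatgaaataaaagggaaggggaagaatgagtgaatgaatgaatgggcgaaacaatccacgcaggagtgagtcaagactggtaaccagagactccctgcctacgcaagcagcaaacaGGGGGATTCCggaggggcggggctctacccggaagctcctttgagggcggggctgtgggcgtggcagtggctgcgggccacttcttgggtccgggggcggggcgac

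For the other 3 genes with a match, 30 bases around it are shown, with the match in capitals. Tnfaip3 (minus strand) had 2 matches, at chr10:19015516-19015545 and chr10:19015411-19015440. Nfkb2 (plus strand) had 2 matches before its first start, at chr19:46304688-46304717 and, 1 base before the start, at chr19:46304707-46304736. The second of these stretches begins with the last bases of the first match, also in capitals. Matches before later starts are shown at chr19:46305449-46305478 and chr19:46305695-46305724. Rel (minus strand) is shown at chr11:23771042-23771071.
Tnfaip3, farther match: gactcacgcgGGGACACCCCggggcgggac
Tnfaip3, nearer match: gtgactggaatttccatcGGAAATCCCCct
Nfkb2, first start, farther match: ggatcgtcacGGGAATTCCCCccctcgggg
Nfkb2, first start, nearer match: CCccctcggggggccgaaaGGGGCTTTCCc
Nfkb2, later start: tccgacggcaGGAATGTCCCcacaaaagcc
Nfkb2, last start: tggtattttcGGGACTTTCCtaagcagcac
Rel: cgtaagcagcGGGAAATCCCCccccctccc

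The windows with a match did not all belong to genes that moved. Rel held the consensus and was not called in any of the tau comparisons with all libraries. Nfkbib rose with tau in R47H cells and held none in its window, chr7:28766645-28766894. That window lies within the gene as listed below (chr7:28758251-28767512, minus strand). The bases before the listed start of Nfkbib were not searched, so this window does not show whether they hold a match.

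Levels were first compared between the genes in WT cells without tau, as CPM per kb of the deposited gene length. Nfkbia, which encodes IkB alpha, the main inhibitor degraded on stimulation, stood at 53.6 ± 9.85 (SD, n = 3). Rela, the p65 subunit that carries the main transactivation domain, stood at 44.8 ± 3.30, and Nfkb2, the p100 precursor of p52, at 33.9 ± 6.53. The other 7 genes lay between 6.37 for Rel and 17.97 for Relb. In the order of levels, Rela and Nfkb2, and Nfkb2 and Relb, differed by more than the larger SD of the pair. The other neighbours in that order, Nfkbia and Rela among them, did not. In R47H cells with tau the order began with Nfkbia at 100.3 ± 3.79, Nfkb2 at 53.7 ± 2.01 and Rela at 43.2 ± 2.48 CPM per kb, each apart from the next by more than the larger SD.

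The order depends on the length used. The deposited length of Nfkb1 is 12061 bases, while its longest coding transcript in GENCODE M21 has 4117. With the transcript length, Nfkb1 in WT cells stood at 36.5 ± 9.05 CPM per kb instead of 12.5 ± 3.09. Changes between groups do not depend on this choice.

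Coordinates are those of the deposited table on GRCm38. The subunit genes are Nfkb1 on chr3:135584655-135691547 (minus strand), Nfkb2 on chr19:46304737-46312090 (plus), Rel on chr11:23736847-23770970 (minus), Rela on chr19:5637483-5648130 (plus) and Relb on chr7:19606217-19629438 (minus). The inhibitor genes are Nfkbia on chr12:55489410-55492647 (minus), Nfkbib on chr7:28758251-28767512 (minus), Nfkbie on chr17:45555703-45563169 (plus), Nfkbiz on chr16:55811375-55838899 (minus) and Tnfaip3 on chr10:19000910-19015657 (minus). Their values are exon counts over the whole gene. In GENCODE M21, exons of 2 of the 10 genes share bases with a gene on the opposite strand. The strand setting of the counting is not given, so reads there cannot be assigned with certainty. Psd covers 6.52% and a long non-coding RNA 11.6% of the M21 exon bases of Nfkb2. Ccer2 covers 14.5% and Sirt2 1.94% of those of Nfkbib. The M21 exons of Nfkb2 span 4584 bases and its deposited length is 3289. Its overlaps may therefore lie in part outside the exons that were counted. For Nfkbib both lengths are 2169 bases.

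**Figure D1:**
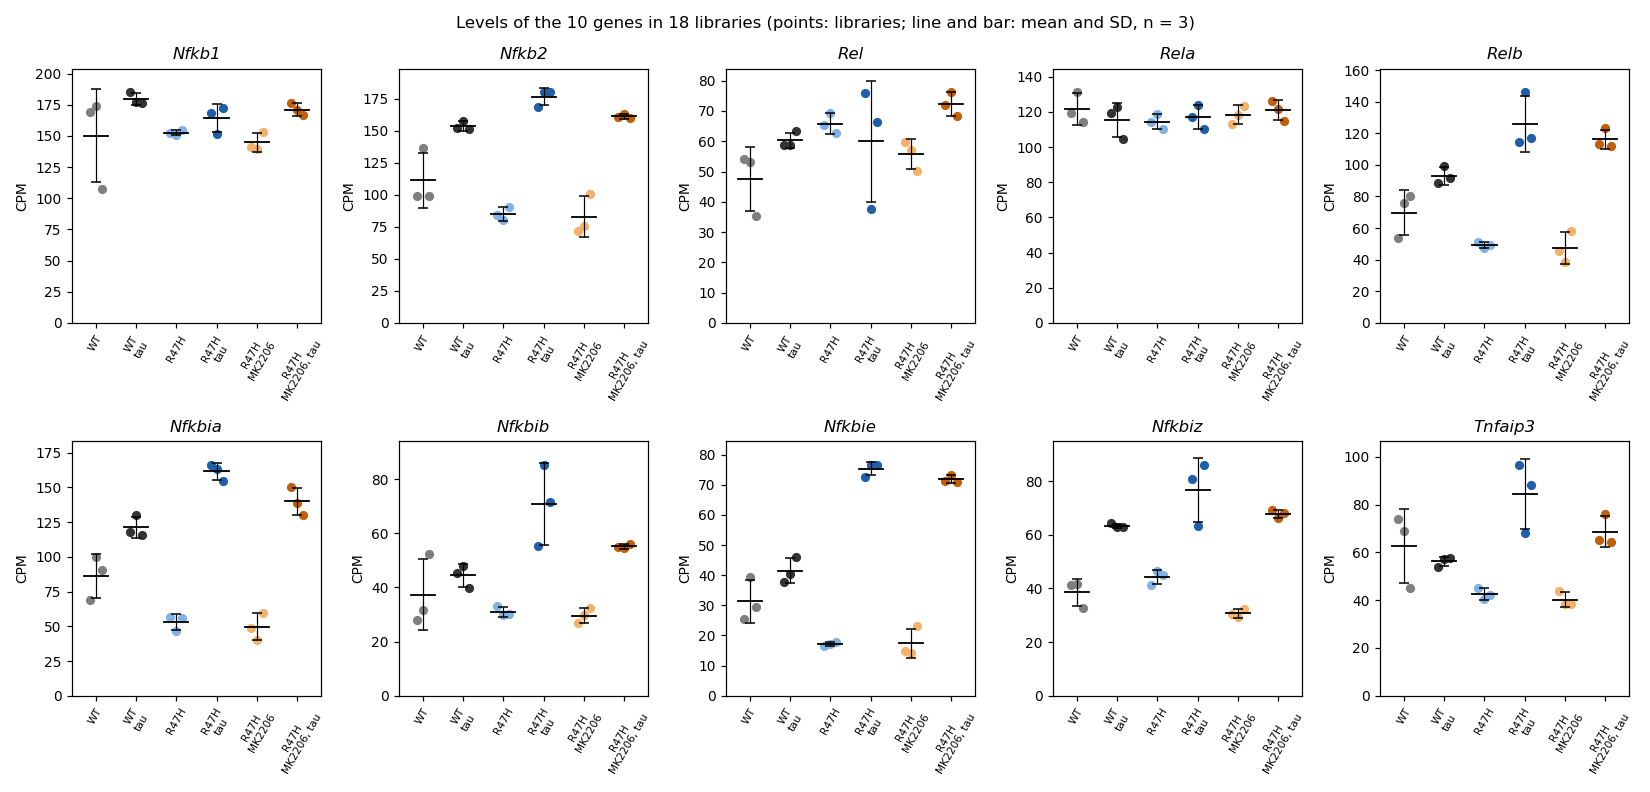
Level of each gene in CPM (vertical axis, from 0) in the 6 groups. Points are libraries, and the line and bar are the mean and SD of 3 libraries. With tau, Nfkbie in R47H cells sits between 72.7 and 76.7 CPM, above every library without tau, while Rela stays between 104.4 and 131.6 CPM in all 18 libraries.

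With tau fibrils, 7 of the 10 genes were higher in R47H cells: Nfkb2 and Relb among the subunits, and all 5 inhibitors. Nfkb1, Rel and Rela were not called. A gene was called at a Benjamini-Hochberg adjusted p under 0.05 over all 13267 genes in edgeR's quasi-likelihood test. In this comparison 27.6% of all tested genes were called, and 15% were called higher. The median change of the 10 genes was 1.02 on the log2 scale, beside -6.13e-05 over all tested genes. In bulk RNA a change in cell number of a type cannot be told apart from a change in RNA per cell. Markers of other cells moved with tau as well: in R47H cells the summed oligodendrocyte markers went from between 121.7 and 132.6 CPM to between 66.6 and 82.6 CPM, and the fibroblast and vascular list, nearly all of it Kdr, from between 25.2 and 32.6 to between 56.1 and 93.1 CPM. The summed list of monocytes, granulocytes and border macrophages went from between 472.6 and 523.1 to between 393.6 and 401.8 CPM, with Mrc1 going from a mean of 461.9 to 194.7, Ccr2 going from 24.9 to 16.9 and Ly6c2 from 12.3 to 177 CPM. The summed astrocyte list went from between 65.7 and 69.0 to between 78.1 and 102.2 CPM, and most of it was Aldh1l1. Within that list the mean of Aldh1l1 went from 50.5 to 73.1 and that of Slc1a3 from 0.872 to 3.01 CPM. Fabp7 went down from 9.56 to 7.01 and Aldoc from 5.75 to 3.69 CPM. The microglial list itself went from between 6521 and 6651 to between 7021 and 8795 CPM. Their part in the results was not tested.

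Nfkbie encodes IkB epsilon, an inhibitor that holds back Rela and Rel dimers. In R47H cells it read 16.7, 17.2 and 17.9 CPM, and 72.7, 76.7 and 76.7 CPM after tau. The ranges lie far apart, and this was the largest change among the 10 genes, 4.37-fold or 2.13 on the log2 scale (SE 0.176, edgeR adjusted p = 1.78e-07). Nfkbia read 57.0, 46.5 and 55.7 CPM, and after tau 166.4, 163.4 and 154.6 CPM. Each tau library thus lay above each library without tau, and the log2 change was 1.61 (SE 0.152, edgeR adjusted p = 7.71e-07). Nfkbib, which encodes IkB beta, read 33.0, 29.8 and 30.1 CPM against 55.4, 85.4 and 71.6 CPM. The tau libraries were all higher but spread widely, with the highest value in the library that reads low in long genes. Its log2 change was 1.19 (SE 0.195, edgeR adjusted p = 0.000221), and 1.02 without the 2 length-shifted libraries.

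Nfkbiz encodes IkB zeta, a nuclear member of the family that acts with p50 dimers on chromatin. It rose from 41.4, 46.5 and 45.0 CPM to 80.9, 63.4 and 86.2 CPM, with no overlap of the ranges. The log2 change was 0.79 (SE 0.120, edgeR adjusted p = 0.000101). Tnfaip3 encodes A20, a ubiquitin-editing enzyme that shuts off signalling upstream of the IkB kinases. It rose from 45.1, 40.3 and 42.3 CPM to 96.7, 68.1 and 88.1 CPM, again without overlap, by 0.99 on the log2 scale (SE 0.164, edgeR adjusted p = 0.00025).

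Among the subunits, Relb and Nfkb2 rose. Their products pair as the RelB and p52 dimer of the non-canonical pathway. Relb read 51.1, 47.5 and 49.5 CPM in untreated cells and 114.8, 146.4 and 116.8 CPM after tau, a log2 change of 1.35 (SE 0.162, edgeR adjusted p = 9.68e-06). Nfkb2 read 84.5, 80.2 and 90.7 CPM in untreated cells and 169.0, 180.2 and 180.7 CPM after tau, a log2 change of 1.05 (SE 0.137, edgeR adjusted p = 2.32e-05). For both, the lowest tau library was above the highest library without tau.

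The 3 remaining subunits overlapped between the groups. Rela lay at 110.3 to 118.8 CPM, and at 110.6 to 124.0 CPM after tau, a difference of 0.03 on the log2 scale with a 95% interval from -0.17 to 0.23. Nfkb1, the p105 precursor of p50, read 150.7 to 155.1 CPM and 151.2 to 172.3 CPM, a difference of 0.10 with an interval from -0.19 to 0.40. Rel, the c-Rel subunit of lymphoid and myeloid cells, read 62.7 to 69.5 CPM, and 76.1, 37.5 and 66.3 CPM after tau. The low value belongs to the length-shifted library, and the interval of the log2 difference ran from -0.56 to 0.29. Ranges were separate for the 7 called genes and for none of the other 3, beside 49.8% of all tested genes. All 7 were called higher too without the 2 length-shifted libraries, where 42.8% of all genes were called.

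The shift in subunit mRNA was also seen in the share of each subunit in the sum of the 5, per kb of deposited length. Rela held 41.2% ± 1.53 (SD, n = 3) in R47H cells without tau and 28.6% ± 1.09 with tau. Nfkb2 went from 25.3% ± 1.57 to 35.6% ± 1.18 and Relb from 12.4% ± 0.439 to 21.4% ± 2.40. In WT cells Rela held 38.9% ± 1.70 without tau and 31.2% ± 1.59 with it. By the deposited lengths Rela was the largest share without tau in both genotypes, and Nfkb2 the largest with tau. The second of these orders turns with the length of the longest coding transcript. Rela then still held the largest share without tau (31.8% in R47H and 30.3% in WT). With tau the largest was Relb in R47H (29.3%, with Nfkb2 at 23.7%) and Nfkb1 in WT (24.8%, with Rela at 24.1%, Relb at 23.9% and Nfkb2 at 22.7%). These shares come from the same counts as the tests.

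In WT cells the tau response was smaller in number and size. Of the 10 genes, 3 were called higher: Nfkbiz, Nfkbia and Nfkb2. Over all genes 26.5% were called, and 14.4% were called higher. The median change of the 10 was 0.37 on the log2 scale, beside -0.04 over all tested genes. In WT cells too, the summed oligodendrocyte markers were lower with tau (108.2 to 109.6 CPM against 136.5 to 171.8), the fibroblast and vascular list was higher (40.0 to 44.3 against 4.25 to 12.2), and the list of monocytes, granulocytes and border macrophages overlapped between the groups (486.4 to 560.4 against 395.4 to 560.6). Within that list Mrc1 went from a mean of 477.4 to 333.9, Ccr2 from 10.2 to 23.8 and Ly6c2 from 4.66 to 145.7 CPM.

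Nfkbiz went from 41.3, 41.8 and 32.7 CPM to 64.3, 62.8 and 62.8 CPM. The tau libraries all lay above the others, and the log2 change was 0.71 (SE 0.120, edgeR adjusted p = 0.000286). Nfkbia read 68.9, 99.9 and 90.2 CPM, and after tau 118.0, 130.0 and 116.0 CPM, a log2 change of 0.49 (SE 0.148, edgeR adjusted p = 0.0221). Nfkb2 read 99.3, 136.5 and 99.1 CPM and 152.2, 158.1 and 151.2 CPM, a log2 change of 0.46 (SE 0.136, edgeR adjusted p = 0.0189). WT without tau was the more variable group for both genes, though no library overlapped with those given tau. The Nfkb2 call was lost without WT replicate 1 (adjusted p = 0.0619), WT replicate 3 (0.0513) or WT with tau replicate 2 (0.0597) in edgeR. That of Nfkbia was lost without WT replicate 1 (edgeR adjusted p = 0.0817) or WT with tau replicate 2 (0.0827). In a fit on the 2 groups alone neither was called (edgeR adjusted p = 0.187 and 0.177).

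The other 7 genes were not called in WT. Relb read 53.7, 75.7 and 80.05 CPM, and after tau 88.3, 99.6 and 91.5 CPM, a log2 difference of 0.42 (edgeR adjusted p = 0.0649). Nfkbie read 25.4, 39.3 and 29.4 CPM and 37.9, 40.5 and 46.0 CPM, with overlapping ranges and a log2 difference of 0.40 (edgeR adjusted p = 0.0929). Tnfaip3 differed in sign from the R47H response, with 73.8, 68.9 and 44.9 CPM in untreated cells and 54.0, 57.3 and 57.5 CPM after tau. Its log2 difference of -0.15 was not called (edgeR adjusted p = 0.511). Nfkb1, Rel, Rela and Nfkbib gave log2 differences of 0.26, 0.34, -0.08 and 0.25. Ranges did not overlap for 6 of the 10 genes, beside 36.1% of all genes.

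The WT calls turned in part on WT replicate 3, which reads low in long genes. It held the lowest value of its group for Nfkb1, Nfkb2, Rel, Rela, Nfkbiz and Tnfaip3 and the highest for Relb and Nfkbib. Without it alone, Relb (0.49), Nfkbib (0.54) and Tnfaip3 (-0.38) were called by edgeR (adjusted p = 0.021, 0.00596 and 0.0281). Without WT replicate 2, Nfkbie was called, with a log2 change of 0.60 (edgeR adjusted p = 0.0157). Without both length-shifted libraries 6 of the 10 were called in WT, beside 41.4% of all genes. Nfkb2, Relb, Nfkbia, Nfkbib and Nfkbiz were then higher, and Tnfaip3 was lower by 0.36 on the log2 scale (edgeR adjusted p = 0.00155).

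**Figure D2:**
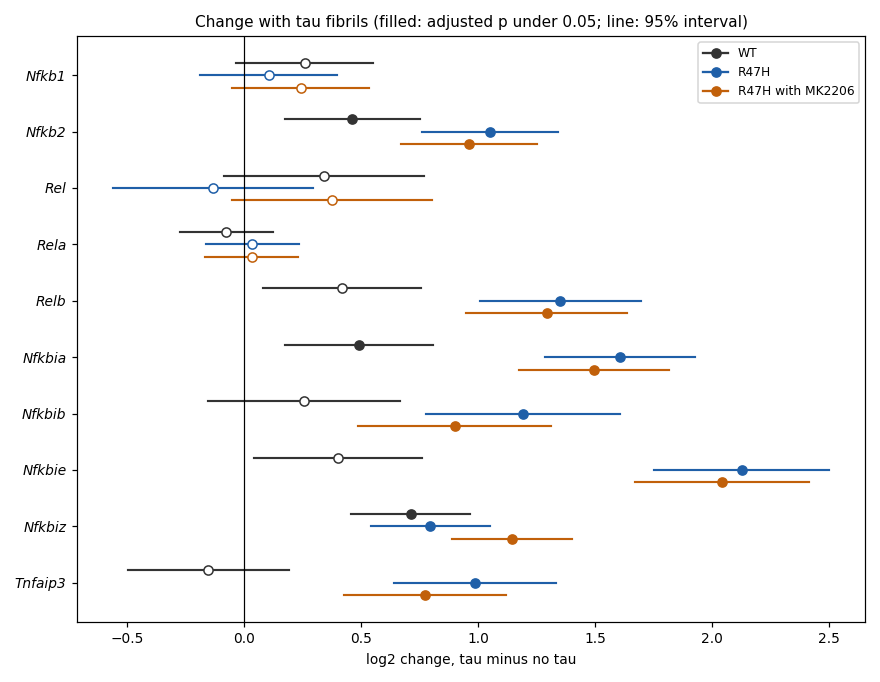
Log2 change with tau (horizontal axis) of each gene in WT, R47H and R47H with MK2206, with its 95% interval. Filled points passed an adjusted p under 0.05. Nfkbie lies at 0.40 in WT and at 2.13 and 2.04 in the R47H comparisons, and Rela lies near 0 in all 3.

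Whether tau acted differently in the 2 genotypes was tested as the interaction, the R47H tau change minus the WT tau change. The change was greater in R47H for 4 of the 10 genes: Nfkbie, Tnfaip3, Nfkbia and Relb. Over all tested genes 5.37% were called in this test, and 2.05% were called higher. The median of the 10 was 0.76 on the log2 scale, beside -0.01 over all genes.

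The interaction of Nfkbie was 1.73 (SE 0.241, edgeR adjusted p = 0.000376), from a log2 change of 0.40 in WT and 2.13 in R47H. Tnfaip3 followed with 1.14 (SE 0.230, edgeR adjusted p = 0.00651), from -0.15 and 0.99. That of Nfkbia was 1.11 (SE 0.210, edgeR adjusted p = 0.00402), from 0.49 and 1.61. For Relb it was 0.93 (SE 0.225, edgeR adjusted p = 0.0221), from 0.42 and 1.35. The Relb call was lost when WT with tau replicate 1 (adjusted p = 0.0648) or 3 (0.0529), R47H replicate 2 (0.061) or 3 (0.0555), or R47H with tau replicate 2 (0.0609) was left out in edgeR, and in a fit on the 4 groups alone (0.0531).

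Nfkbib and Nfkb2 fell short of the call, with interactions of 0.94 (edgeR adjusted p = 0.0589) and 0.59 (edgeR adjusted p = 0.0909). DESeq2 called both (adjusted p = 0.0165 and 0.026). Each was called too when WT replicate 1 or 3 was left out, Nfkbib at 1.12 and 0.66 and Nfkb2 at 0.68 and 0.71. Nfkbib was called as well without WT replicate 2 (1.04) or R47H with tau replicate 1 (1.08). Without both length-shifted libraries 6 genes were called, beside 11.9% of all genes: Nfkbie 1.76, Tnfaip3 1.46, Nfkbia 1.07, Relb 0.71, Nfkb2 0.65 and Nfkbib 0.46.

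For Nfkbiz the interaction was 0.08 (95% interval from -0.28 to 0.44), beside rises of 0.79 in R47H and 0.71 in WT. Rela gave 0.11 (from -0.17 to 0.39), Nfkb1 -0.15 (from -0.57 to 0.26) and Rel -0.48 (from -1.08 to 0.13).

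The genotypes were also compared directly in each state. Without tau, 4 of the 10 genes were lower in R47H than in WT: Nfkbie, Nfkbia, Tnfaip3 and Relb. With tau, 3 were higher in R47H: Nfkbie, Nfkbib and Tnfaip3. Over all genes 15.1% were called without tau, of which the lower calls were 6.83% of all, and 9.5% were called with tau, where the higher calls were 5.25%. The median difference of the 10 was -0.33 on the log2 scale without tau, beside -0.02 over all genes, and 0.35 with tau, beside -0.00212. Cell markers differed between the genotypes too. Without tau the fibroblast and vascular list summed to 4.25 to 12.2 CPM in WT and 25.2 to 32.6 CPM in R47H, and the oligodendrocyte list to 136.5 to 171.8 and 121.7 to 132.6 CPM. With tau the oligodendrocyte list summed to 108.2 to 109.6 CPM in WT and 66.6 to 82.6 CPM in R47H, and the fibroblast and vascular list to 40.0 to 44.3 and 56.1 to 93.1 CPM. The list of monocytes, granulocytes and border macrophages then summed to 486.4 to 560.4 CPM in WT and 393.6 to 401.8 CPM in R47H. The microglial list summed to 6363 to 6961 CPM in WT with tau and 7021 to 8795 CPM in R47H with tau. Their part in these differences was not tested.

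Nfkbie was lower in R47H cells without tau by 0.86 on the log2 scale (SE 0.172, edgeR adjusted p = 0.00245) and higher with tau by 0.86 (SE 0.169, edgeR adjusted p = 0.00381). Ranked by mean, it read 17.3 ± 0.634 CPM (SD, n = 3) in R47H and 17.4 ± 4.85 in R47H with MK2206, then 31.4 ± 7.14 in WT, 41.5 ± 4.16 in WT with tau, 71.8 ± 1.28 in R47H with MK2206 and tau, and 75.4 ± 2.29 in R47H with tau. The 2 lowest groups did not differ beyond their spread. Nfkbia was lower in R47H without tau by 0.70 (SE 0.149, edgeR adjusted p = 0.00397), with the R47H libraries at 46.5 to 57.0 CPM and those of WT at 68.9 to 99.9 CPM. With tau it was 0.41 higher in R47H, which edgeR did not call (adjusted p = 0.0987) and DESeq2 did (adjusted p = 0.0492).

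Tnfaip3 was lower in R47H without tau by 0.56 (SE 0.163, edgeR adjusted p = 0.0297). The ranges met, since WT replicate 3 read 44.9 CPM and the highest R47H library 45.1 CPM. With tau it was higher in R47H by 0.58 (SE 0.162, edgeR adjusted p = 0.0326), without overlap. Relb was lower without tau by 0.50 (SE 0.160, edgeR adjusted p = 0.0461). With tau its difference of 0.44 was not called (edgeR adjusted p = 0.105), although every R47H library with tau, from 114.8 CPM up, was above the highest WT library with tau at 99.6 CPM. Nfkbib was higher in R47H with tau by 0.67 (SE 0.193, edgeR adjusted p = 0.0384).

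Most of these genotype calls lay close to the threshold. The Tnfaip3 and Relb calls without tau and the Tnfaip3 and Nfkbib calls with tau were each lost when single libraries were left out. For Tnfaip3 without tau these were WT replicates 1 and 2 and each R47H library (edgeR adjusted p from 0.064 to 0.106). For Relb they were WT replicates 2 and 3 and each R47H library (from 0.0724 to 0.144 in edgeR). With tau, the Tnfaip3 call was lost without any of the WT libraries or R47H replicates 1 and 3 (from 0.0777 to 0.128), and that of Nfkbib without any of the WT libraries or R47H replicates 2 and 3 (from 0.0763 to 0.183). The Nfkbie calls held without each single library in both states, and so did that of Nfkbia without tau. A fit on the compared groups alone called none of these 4 genes without tau, with edgeR adjusted p of 0.0649 for Nfkbie, 0.104 for Nfkbia, 0.219 for Tnfaip3 and 0.223 for Relb. With no filter on counts, Relb without tau (edgeR adjusted p = 0.0861) and Tnfaip3 with tau (0.0507) were not called. Nfkbiz with tau gave 0.28, and 0.40 when R47H with tau replicate 2 was left out, which edgeR called (adjusted p = 0.0426).

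The other genes without tau were not called. Nfkb2 read 80.2 to 90.7 CPM in R47H and 99.1 to 136.5 CPM in WT, a log2 difference of -0.39 (edgeR adjusted p = 0.065), which DESeq2 called (adjusted p = 0.0271). It was called by edgeR too without WT replicate 1 (-0.47) or WT replicate 3 (-0.49). Rel read 62.7 to 69.5 CPM in R47H and 35.4 to 54.2 CPM in WT, a log2 difference of 0.47 (edgeR adjusted p = 0.131). Nfkb1, Rela, Nfkbib and Nfkbiz gave 0.02, -0.09, -0.27 and 0.20. Ranges did not overlap for 5 of the 10 genes without tau, beside 31.4% of all genes, and for 7 with tau, beside 33.7%.

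Without both length-shifted libraries 7 of the 10 genes were called without tau, beside 28.9% of all genes. Nfkb1 (-0.17), Nfkb2 (-0.47), Relb (-0.39), Nfkbia (-0.67), Nfkbie (-0.91) and Tnfaip3 (-0.75) were lower in R47H and Rel (0.29) was higher. With tau 6 were called, beside 23.3% of all genes. All 6 were higher in R47H: Rel (0.24), Nfkbia (0.40), Nfkbib (0.51), Nfkbie (0.85), Nfkbiz (0.40) and Tnfaip3 (0.71). The sign of Nfkb1 without tau and that of Rel with tau differed from those with all libraries, which were 0.02 and -0.01.

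**Figure D3:**
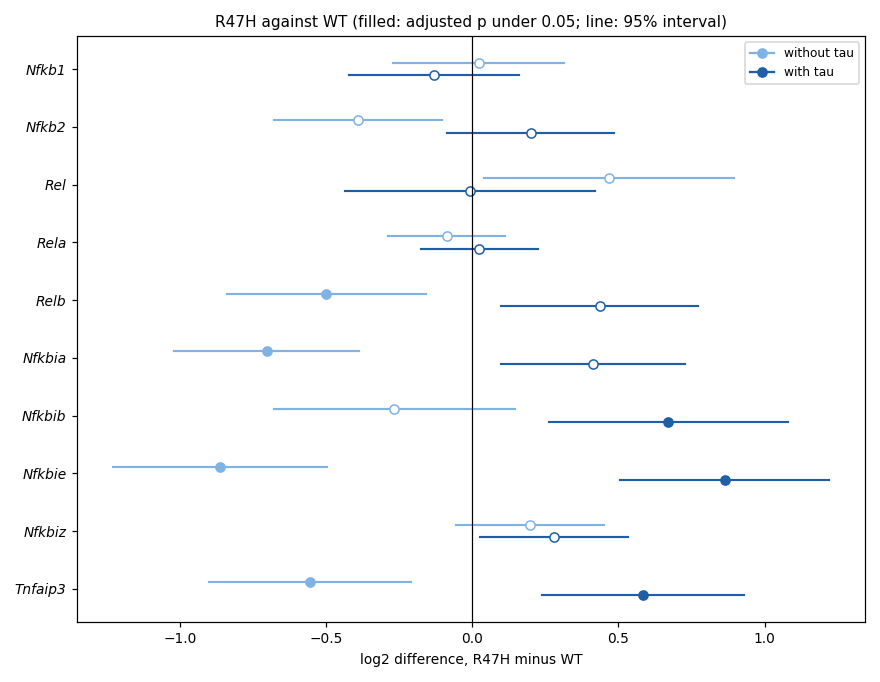
Log2 difference of R47H minus WT (horizontal axis) for each gene without tau and with tau, with its 95% interval. Filled points passed an adjusted p under 0.05. Nfkbie lies at -0.86 without tau and at 0.86 with tau, and the points of Rela lie at -0.09 and 0.02.

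MK2206 was given to R47H cells only, so its comparisons bear on that genotype. Without tau 1 of the 10 genes, Nfkbiz, was lower with MK2206, where 2.55% of all tested genes were called and 1.36% were called lower. Nfkbiz read 41.4, 46.5 and 45.0 CPM without and 30.4, 29.2 and 32.5 CPM with MK2206. The ranges were separate, and the log2 difference was -0.53 (SE 0.120, edgeR adjusted p = 0.0271). The call was lost when any of the 6 libraries was left out, with edgeR adjusted p from 0.0633 to 0.145 and differences of the same sign, and with no filter on counts (0.144). Summed microglial markers lay at 4849 to 5270 CPM under MK2206 and at 6521 to 6651 CPM without it, and their part in the result was not tested. Rel was separate too, with 50.3 to 59.8 CPM under MK2206 and 62.7 to 69.5 CPM without it, a log2 difference of -0.24 that was not called with all libraries (edgeR adjusted p = 0.843) and was called in a fit on the 2 groups alone (0.0328). Over all genes 32.6% had separate ranges.

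With tau, edgeR called 0 of the 10 genes for MK2206, 0 passed an unadjusted p under 0.05, and DESeq2 called 0. Over all genes 3.04% were called. The log2 differences ran from -0.36 for Nfkbib (95% interval from -0.77 to 0.05) to 0.27 for Rel (from -0.16 to 0.70). Tnfaip3 gave -0.30 (from -0.64 to 0.05), Nfkbia -0.21 (from -0.52 to 0.11) and Nfkbie -0.07 (from -0.42 to 0.29). Nfkbia, at 130.4 to 150.3 CPM against 154.6 to 166.4 CPM, and Nfkb2, at 160.1 to 163.3 CPM against 169.0 to 180.7 CPM, had separate ranges, as 27.7% of all genes did. Without both length-shifted libraries, 2 genes were called lower with MK2206 and tau, Nfkbiz (-0.30, edgeR adjusted p = 0.00685) and Tnfaip3 (-0.43, edgeR adjusted p = 0.00148), beside 12% of all genes. Without tau, Rel (-0.23, edgeR adjusted p = 0.0421) was then called beside Nfkbiz (-0.52), where 13.9% of all genes were called.

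Under MK2206, 7 of the 10 genes were higher with tau: Nfkb2, Relb and the 5 inhibitors. Over all genes 25.6% were called and 14.3% were called higher. The median change of the 10 was 0.93 on the log2 scale, beside -0.03 over all genes. Summed microglial markers went from between 4849 and 5270 to between 6940 and 7134 CPM, fibroblast and vascular markers from between 30.5 and 33.1 to between 97.4 and 102.7, and oligodendrocyte markers from between 131.2 and 147.4 to between 86.5 and 90.3 CPM. The summed astrocyte list went from between 53.9 and 70.3 to between 93.1 and 106.0 CPM. Within it the mean of Aldh1l1 went from 39.0 to 85.8 and that of Slc1a3 from 0.979 to 2.21 CPM. Fabp7 went down from 16.9 to 7.76 and Aldoc from 5.33 to 3.72 CPM. The list of monocytes, granulocytes and border macrophages went from between 521.7 and 547.0 to between 394.8 and 457.9 CPM. Their part in the result was not tested. Nfkbie read 14.95, 14.3 and 23.0 CPM, and after tau 71.1, 73.3 and 71.1 CPM. The groups lay far apart, by 2.04 on the log2 scale (SE 0.176, edgeR adjusted p = 2.16e-07). Nfkbia rose from 49.0, 40.4 and 59.6 CPM to 150.3, 138.9 and 130.4 CPM, by 1.49 (SE 0.151, edgeR adjusted p = 1.34e-06). Nfkbiz rose from 30.4, 29.2 and 32.5 CPM to 69.3, 66.1 and 68.1 CPM, by 1.14 (SE 0.121, edgeR adjusted p = 2.19e-06). These 3 inhibitors were separate between the groups in every library.

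Relb, Nfkb2, Nfkbib and Tnfaip3 rose by 1.29, 0.96, 0.90 and 0.77 on the log2 scale, with edgeR adjusted p from 1.31e-05 to 0.00232. Rela lay at 112.9 to 123.7 CPM, and at 115.0 to 126.1 CPM after tau, a log2 difference of 0.03 with a 95% interval from -0.17 to 0.23. Nfkb1 (0.24) and Rel (0.38) were not called. Both were called without the length-shifted libraries (0.22 and 0.36, edgeR adjusted p = 0.00232 and 0.000399), where 48% of all genes were called. Neither of those libraries belongs to these 2 groups, which share the filter, the scaling and the estimate of spread with the rest. In a fit on the 2 groups alone both were called as well (0.26 and 0.39, edgeR adjusted p = 0.00328 and 0.000494). Ranges were separate for 9 of the 10 genes, beside 55.6% of all genes.

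The difference between the tau changes with and without MK2206 was tested directly. In edgeR 0 of the 10 genes were called, 0 passed an unadjusted p under 0.05 and DESeq2 called 0, beside 0.377% of all genes in edgeR. The estimates ran from -0.29 for Nfkbib to 0.51 for Rel, and the interval of Rel reached from -0.09 to 1.11. With 3 libraries a group, effects of MK2206 on the tau change that lie within these intervals are not excluded.

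**Figure D4:**
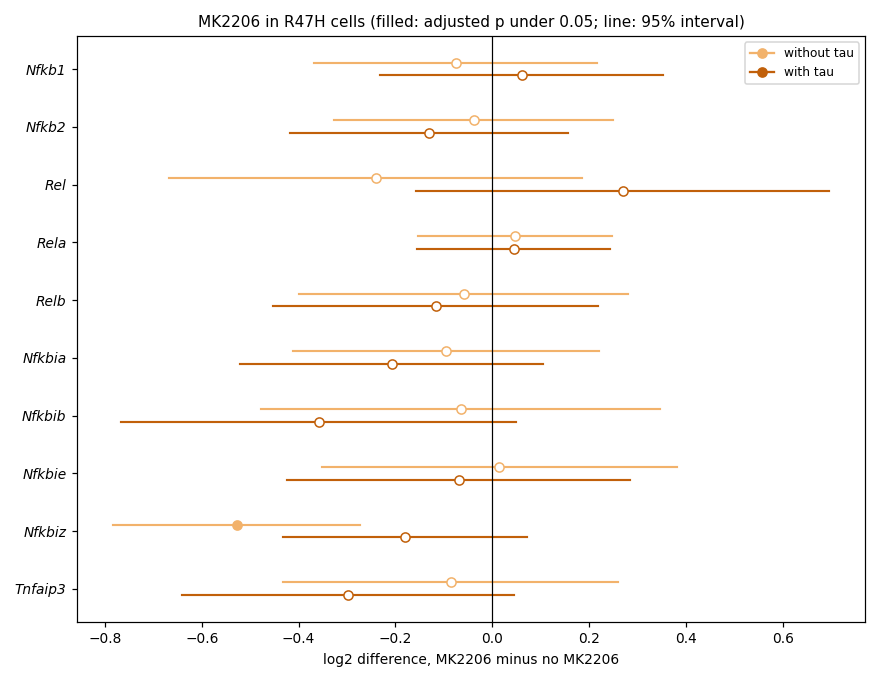
Log2 difference of MK2206 minus no MK2206 in R47H cells (horizontal axis) for each gene without tau and with tau, with its 95% interval. Filled points passed an adjusted p under 0.05. Only Nfkbiz without tau, at -0.53, is filled.

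Other genes of the pathway were taken from 5 lists, described by their counts and medians. The lists were written with earlier results of these data known. Their tau counts are to be read beside the shares of all tested genes, 15% higher and 12.6% lower in R47H and 14.4% higher and 12.1% lower in WT. The first list held 4 genes, of further IkB proteins or of small GTPases that bind IkB proteins. With tau 3 rose in R47H cells (median log2 change 0.70), and 2 rose and 1 fell in WT cells (0.08). Bcl3, a nuclear IkB protein that binds p50 and p52, rose in both, by 1.65 and 1.16. It went from 20.4 ± 2.80 to 64.1 ± 4.51 CPM (SD, n = 3) in R47H and from 24.0 ± 3.94 to 53.7 ± 5.37 CPM in WT. Nfkbid, which encodes the nuclear inhibitor IkB NS, fell in WT by 0.53 on the log2 scale and rose in R47H by 0.48. Its interaction of 1.01 was called (edgeR adjusted p = 0.00309). Nkiras2, which encodes a small GTPase that binds IkB proteins, rose by 0.50 in R47H and 0.29 in WT, where the call was lost without WT replicate 3, WT with tau replicate 1 or 2, or both length-shifted libraries. Its relative Nkiras1 gave 0.90 in R47H (edgeR adjusted p = 0.0567) and -0.13 in WT. The R47H value was not called by edgeR with all libraries, and was called by DESeq2 and without R47H replicate 2 or both length-shifted libraries.

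The next list held 11 genes of kinases that act on inhibitors of kB or lie just upstream, and of partners of these kinases. Of these 11 genes, 2 rose in R47H cells and 5 in WT cells, with medians of 0.09 and 0.35. The R47H count is near the share of all genes called higher. Without the length-shifted libraries 5 rose and 1 fell in each, beside 42.8% of all genes called in R47H and 41.4% in WT. Ikbke, the inducible IkB kinase epsilon, rose in both genotypes, by 1.60 in R47H and 1.41 in WT. Tbk1, its close relative, rose by 0.54 in R47H and 0.35 in WT, where the call was lost without WT replicate 1 or WT with tau replicate 3. Map3k8, a kinase bound by p105, rose by 0.59 in WT and gave 0.08 in R47H, with an interaction of -0.51 that edgeR did not call (adjusted p = 0.0899) and DESeq2 did. Tab1 and Tab2, partners of the kinase TAK1, rose in WT by 0.41 and 0.45 and gave 0.09 and 0.09 in R47H. Both WT calls were lost without WT replicate 3 or WT with tau replicate 1 or 2, and that of Tab2 also without WT with tau replicate 3. Without both length-shifted libraries Tab2 was called in R47H too, at 0.24 (edgeR adjusted p = 0.0196), beside 0.28 in WT. Map3k7, which encodes TAK1 itself, gave 0.04 in WT and -0.34 in R47H. It was not called with all libraries, and was lower in both without the length-shifted ones.

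Of the 16 receptor adaptors and TRAF genes, 8 rose in R47H and 8 in WT, with medians of 0.48 and 0.41. Traf1, an inducible TRAF, went from 0.455 to 23.3 CPM in R47H and from 0.548 to 4.60 CPM in WT. The log2 changes of Traf1 were 5.65 and 3.11, and its interaction of 2.54 (edgeR adjusted p = 0.0269) was not called without the length-shifted libraries (1.90). Myd88, the adaptor of most Toll-like receptors, rose by 1.05 in R47H and 1.02 in WT, and Traf2 by 1.27 and 0.70. Ticam1, the adaptor TRIF, gave 0.09 in R47H and 0.30 in WT, neither called by edgeR with all libraries.

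Of the 16 ubiquitin genes and A20 partners, 5 rose in R47H, and 7 rose and 2 fell in WT, with medians of 0.19 and 0.35. Tnip1, which encodes an A20-binding protein, rose by 0.95 in R47H and 0.72 in WT. Rnf31, a ligase of linear ubiquitin chains, rose by 0.83 in R47H and 1.42 in WT, with an interaction of -0.59 that was not called (edgeR adjusted p = 0.122) unless WT replicate 2 was left out. Tnip2, a further A20-binding protein, fell in WT by 0.37 on the log2 scale and gave 0.14 in R47H. Its WT call was lost without WT replicate 1 or any of the WT libraries with tau. Tnip3, another A20-binding protein, rose from 5.75 ± 1.03 to 42.3 ± 2.48 CPM (SD, n = 3) in R47H and from 11.4 ± 2.25 to 21.3 ± 6.15 CPM in WT, where the call was lost without WT with tau replicate 3. Its interaction was 1.98 (edgeR adjusted p = 0.00309).

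Of 24 textbook NF-kB targets, 21 passed the filter. In R47H cells 18 rose and 2 fell with tau, with a median of 2.45 on the log2 scale. In WT cells 15 rose and 3 fell, with a median of 1.16. Il12b had 0 counts in R47H without tau and 110 with it, so its fitted value is no estimate of size, and without it the medians were 2.24 and 0.996. Tnf read 13.99, 10.9 and 13.3 CPM in R47H and 67.1, 81.8 and 72.4 CPM with tau. In WT it read 22.2, 23.4 and 35.8 CPM and 37.9, 41.8 and 37.8 CPM. The groups of each genotype were separate, by a log2 change of 2.53 in R47H and 0.53 in WT, and the interaction of 2.002 was called (edgeR adjusted p = 6.51e-05). The Tnf call in WT was lost without WT replicate 1 or 2 or WT with tau replicate 1 or 2.

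In the interaction, 9 of the 21 targets were called, each with a tau change that was more positive in R47H, beside 5.37% of all genes called and 2.05% called higher. Without the length-shifted libraries 11 were higher and 1 was lower, beside 11.9% of all genes called. With all libraries the called targets included, beside Tnf, Bcl2l1 (1.25), an inhibitor of apoptosis, and Cd40 (1.31), a co-stimulatory receptor. Both were called too without the length-shifted libraries, at 0.93 and 0.95. With all libraries Bcl2l1 fell in WT by 0.63 on the log2 scale and rose in R47H by 0.62. Ccl2, a monocyte chemoattractant, rose in both genotypes, by 4.08 in R47H and 4.003 in WT. Without tau it was higher in R47H than in WT by 2.32 (edgeR adjusted p = 8.69e-06). With tau it read 295.6 ± 48.4 CPM (SD, n = 3) in R47H and 56.0 ± 5.78 CPM in WT. Plau, which encodes urokinase, fell in both, by 0.67 and 1.49 on the log2 scale. Mmp9, a matrix protease, rose in both, by 1.47 in R47H and 2.31 in WT, and was lower in R47H than in WT without tau (-2.24) and with tau (-3.08). Its interaction of -0.84 was not called by edgeR (adjusted p = 0.0957) and was called by DESeq2.

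For MK2206 in the presence of tau, 4 of the 21 targets were lower and 1 was higher, beside 3.04% of all genes called. Ccl2 was lower by 2.19 on the log2 scale, Tnf by 0.84, Bcl2l1 by 0.80 and Plau by 0.77, while Mmp9 was higher by 0.83. The Tnf call was lost without R47H with tau replicate 2 or R47H with MK2206 and tau replicate 3, and that of Mmp9 without any of the 6 libraries. Among the A20 partners Tnip3 was lower by 1.00, a call lost without any of the 6 libraries.

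**Figure D5:**
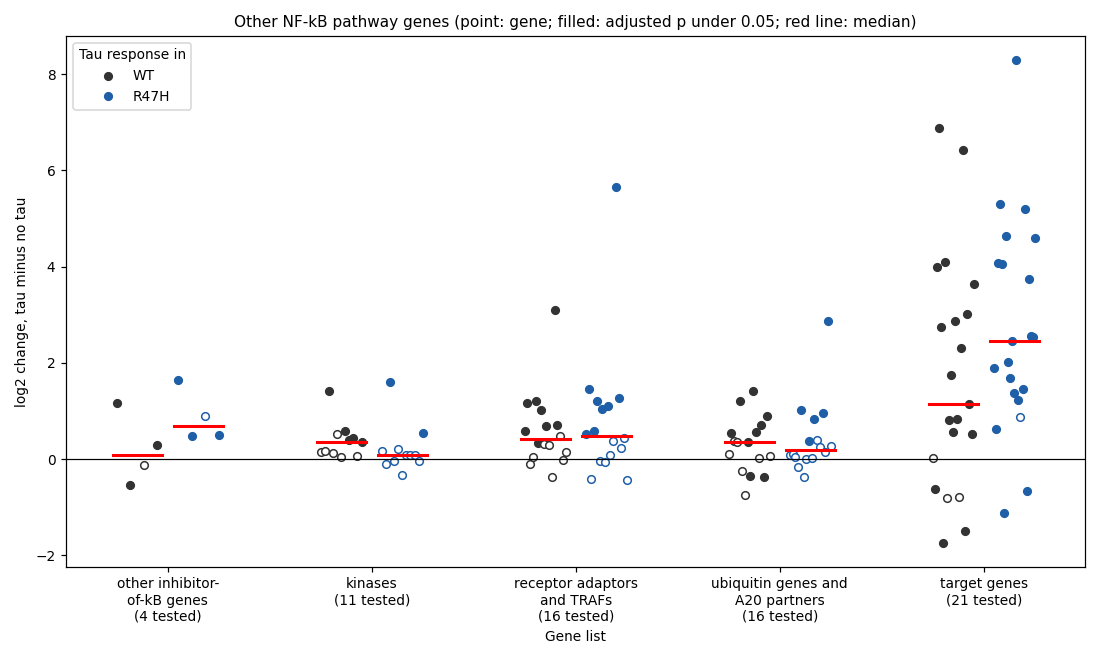
Log2 change with tau (vertical axis) of the tested genes in 5 pathway lists, in WT and R47H cells. Each point is a gene, filled points passed an adjusted p under 0.05 and red lines are medians. The median of the targets is 2.45 in R47H and 1.16 in WT. That of the list marked kinases, which also holds partners of kinases, is 0.09 and 0.35.

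Over the 18 libraries, 4 of the 10 genes followed each other closely. Nfkb2, Relb, Nfkbia and Nfkbie gave Pearson correlations of log2 CPM from 0.958 to 0.982 over their 6 pairs. Rela gave -0.159 to 0.186 with the other 9. The points share the 6 groups, their scaling and 2 length-shifted libraries, so these values describe the set and are not tested. The rankings that follow left out clone-type names such as Gm and Rik symbols, mitochondrial genes, pseudogenes and genes of unconfirmed type. Among the remaining tested genes, those most like Nfkbia were Relb (0.982), Marcksl1 (0.980) and Clec4e (0.979). The genes most like Nfkb2 were Nfkbia (0.974), Fgr (0.971) and Vasp (0.970), and those most like Nfkbiz were Tlr1 (0.978), Camk2d (0.968) and Rasgrp1 (0.964).

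Tau counts without the length-shifted libraries are given here for R47H and then for WT, beside 42.8% and 41.4% of all genes called. For the further IkB proteins and GTPases that bind them they were 4 higher, and 1 higher and 1 lower. For the adaptors they were 9 higher and 2 lower in R47H, and 9 and 1 in WT. For the ubiquitin genes and A20 partners they were 8 and 2, and 7 and 3, and for the targets 19 and 2, and 16 and 3.

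Comparisons that share libraries are not independent of each other. The WT libraries without tau enter the genotype difference without tau and the WT tau change, and the R47H libraries without tau enter 3 of the 7 comparisons between groups. The tau changes in WT and in R47H share no library.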

How the data were processed

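RNA of 18 libraries of primary mouse microglia was sequenced as paired reads after an NEBNext library kit, per the labels' protocols. The authors deposited raw counts per gene, with other annotation columns (positions and summed exon lengths). STAR, featureCounts, DESeq2 and GRCm38 (mm10) are named in the submitters' processing notes. Versions, annotation release and strand setting are not given in the sources used here.

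The 10 genes and 5 pathway lists were chosen with earlier results of these data known. Counts were filtered with filterByExpr, scaled by TMM and fitted over all 6 groups with edgeR 4.0.16 in R 4.3.3 (quasi-likelihood test, 12 residual degrees of freedom). The 7 comparisons between groups and 2 interactions used Benjamini-Hochberg adjustment over 13267 genes at 0.05. CPM values are TMM-scaled, and correlations used log2 CPM with a prior count of 2. Intervals are 95% intervals of the fit. The procedure was tested on simulated data. DESeq2 1.42.0, RLE scaling, no filter, only the groups compared, a replicate block and leaving out each library were the alternatives. A fit without both length-shifted libraries was added after seeing the data. From each list, the genes that could be named with values were the 3 with the smallest p for tau in R47H and the 2 with the smallest p for genotype without tau, for MK2206 with tau and for the interaction of genotype and tau. Il12b is outside that rule and was named after its values were seen. Replicates of a group differed by more than sampling noise: the chi-square per degree of freedom over the tested genes was 3.47 or more in each pair. It was 292.0 and 273.1 in the pairs that hold WT replicate 3, and 8.76 between WT replicates 1 and 2. In the pairs that hold R47H with tau replicate 2 it was 85.3 and 77.8, and 10.1 between replicates 1 and 3 of that group.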

Additional observations from a re-analysis of the deposited data

Results flagged for a closer look

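The tau change differed between the genotypes by the interaction test for 4 of the 10 genes, all with a greater change in R47H than in WT cells. The difference in log2 change was 1.73 for Nfkbie, with 72.7 to 76.7 CPM in the R47H tau libraries and 37.9 to 46.0 CPM in those of WT. It was 1.14 for Tnfaip3, whose change was -0.15 in WT and 0.99 in R47H. Nfkbia gave 1.11, with a lower level in R47H than in WT without tau and, with tau, a difference of 0.41 that edgeR did not call with all libraries and DESeq2 did. Relb gave 0.93, a call that 5 of the 12 single libraries removed when left out. No group here has 4 or more libraries, so single outlying libraries were not tested for.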

How the results depend on the processing

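Over the 10 genes and 9 comparisons, 1200 alternative values were computed. Of these, 1115 stayed on their side of the threshold with no called value changing sign, 49 lost a call, 34 gained one and 2 were called with the opposite sign. The sign changes came without both length-shifted libraries, for Nfkb1 in R47H against WT without tau (-0.17) and for Rel with tau (0.24); among the pathway genes Map3k7 changed sign there too, in the WT tau change (-0.21). The cause was not tested. The 7 genes called for tau in R47H, with and without MK2206, numbered 7 whichever library was left out.

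Counts of called genes among the 10 moved as follows. For R47H against WT without tau (4), the fit on the compared groups alone called 0, leaving out single libraries gave 2 to 4, and leaving out both length-shifted libraries gave 7, while no filter gave 3, the replicate block 3 and DESeq2 5. For tau in WT (3) these were 1, 1 to 5 and 6. For R47H against WT with tau (3), single libraries gave 1 to 3 and both 6, while no filter gave 2, the block 2 and DESeq2 4. For MK2206 without tau (1), no filter gave 0, the replicate block 0, the compared groups alone 2, single libraries 0 and both 2. For MK2206 with tau (0), both gave 2. For the genotype interaction (4), single libraries gave 3 to 6, the compared groups alone gave 3, and both gave 6, as did DESeq2. For tau under MK2206 (7), the compared groups alone and leaving out both gave 9.

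Counts over all genes moved by over 1.5 times as follows. R47H against WT called 1997, and 474 in the compared groups alone, 1295 to 2975 without single libraries and 3907 without both. Tau in WT called 3519, against 1311 and 5589 in the compared groups alone and without both. Tau in R47H called 3667, and 5773 without both. R47H against WT with tau called 1260, against 629 to 1041 without single libraries and 3141 without both. MK2206 without tau called 338, against 2236 in the compared groups alone, 550 by DESeq2, 138 to 198 without single libraries and 1878 without both. MK2206 with tau called 403, against 236 without a filter, 249 with the block, 220 in the compared groups alone, 698 by DESeq2, 150 to 245 without single libraries and 1620 without both. Tau under MK2206 called 3393, against 6225 in the compared groups alone and 6475 without both. The genotype interaction called 713, against 360 in the compared groups alone, 1154 by DESeq2, 471 to 1537 without single libraries and 1610 without both. The MK2206 interaction called 50, against 21 with the block, 187 in the compared groups alone, 207 by DESeq2, 9 to 43 without single libraries and 667 without both.

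Replicate numbers did not pair the samples: deviations from the group means correlated at -0.143 to 0.201 between libraries of the same number and at -0.188 to 0.187 between those of different numbers. With the replicate block, edgeR called 3, 3, 7 and 2 of the 10 genes for R47H against WT, tau in WT, tau in R47H and R47H against WT with tau, 0 and 0 for MK2206 without and with tau, 7 for tau under MK2206, and 4 and 0 in the interactions. The calls lost under the block were those of Relb for R47H against WT (edgeR adjusted p = 0.0628), Nfkbib for R47H against WT with tau (0.051) and Nfkbiz for MK2206 without tau (0.0524). Libraries of 16288531 to 20686299 counts gave at least 14.3 CPM for each of the 10 genes in each library.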
